A study of Mus musculus with 8 samples.

Results

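Methylation 1 to 4 kb from transcription start sites, in positions here called shores, was examined in NIC-5231 mammary tumors by reduced representation bisulfite sequencing (RRBS). Members were autosomal cytosines with 10 or more reads in all 8 libraries whose nearest start site of any GENCODE M21 transcript was more than 1000 bp and at most 4000 bp away. Of 555155 autosomal cytosines with that coverage, 61745 met the distance rule, 24955 of them upstream and 36790 downstream of the start site, and 1 further cytosine that lay equally far from start sites on either side was left out. Cytosines were grouped in tiles of 1000 bp, and tiles with 3 or more cytosines on the same side gave 7707 shore regions, 3205 upstream and 4502 downstream, out of 52513 regions of all positions. The shore regions held 45701 of the shore cytosines and belonged to 5882 genes, each region taking the gene of its nearest start site. For comparison, 21768 regions lay within 1000 bp of a start site and are called promoter cores, and 23038 lay more than 4000 bp from any start site and are called distal regions.

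The NIC-5231 line comes from an ErbB2-driven mammary tumor of the mouse. Tumors were raised from it in the fat pad of NSG mice, which lack T, B and NK cells and were 5 to 7 weeks old at injection. The 4 groups of 5 mice were given vehicle alone, C29, 5-azadC or the combination, at 10 mg/kg for C29 and 1 mg/kg for 5-azadC. The drugs were injected intraperitoneally every 2 days in saline with PEG and DMSO, and the control group is labelled vehicle or DMSO, without its full make-up. For every group 2 libraries were sequenced, each from the pooled DNA of 2 mice. The sources do not state that the pools of a group held different mice, so p-values measure the spread between these libraries only. Cells of the host are mouse cells too, so species does not separate host DNA from tumor DNA. The values used here, a methylated fraction and a read count per cytosine, do not give the share of host DNA.

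When mammalian DNA replicates, the enzyme DNMT1 keeps CpG dinucleotides methylated by acting on the strand just made. The drug 5-azadC, also named decitabine, traps DNA methyltransferases such as DNMT1 once it is built into DNA in place of deoxycytidine. Start sites often lie in CpG islands, which are mostly unmethylated, while the flanking shores pass from this state to the methylated state of the bulk genome, and shores of islands are known as places where tissues and tumors differ in methylation. The shores of this report are defined by distance from a start site alone, with no island required nearby. C29 inhibits ERRα, an orphan nuclear receptor that controls genes of energy metabolism. The design asks whether either drug, or both, changed methylation, and here the question was put for shores on each side of the start site.

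The sequences below are the windows around the tested CpGs of the regions with the largest decrease and the largest increase with 5-azadC on each side of the start site. Selection was among regions with 100 or more reads in each library in which the 4 libraries with 5-azadC did not overlap the 4 without. They are the plus strand of mm10/GRCm38, 5′ to 3′, and capitals mark the tested CpGs. The Osbpl5 window is chr7:143760086-143760152, intergenic and upstream of Osbpl5. The Hk1 window is chr10:62329830-62329973, in an intron and upstream of the nearest Hk1 start site. The Gm24830 window is chr3:96332129-96332182, intergenic and downstream of the Gm24830 start site, and the Gm26878 window is chr8:120881618-120881749, in a noncoding exon downstream of the Gm26878 start site.
Osbpl5 upstream: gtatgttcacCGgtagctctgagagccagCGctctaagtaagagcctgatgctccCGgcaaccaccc
Hk1 upstream: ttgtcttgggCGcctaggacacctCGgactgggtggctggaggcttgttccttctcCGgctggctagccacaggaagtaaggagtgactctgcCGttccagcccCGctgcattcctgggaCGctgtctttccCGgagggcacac
Gm24830 downstream: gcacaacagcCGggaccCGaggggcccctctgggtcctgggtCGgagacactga
Gm26878 downstream: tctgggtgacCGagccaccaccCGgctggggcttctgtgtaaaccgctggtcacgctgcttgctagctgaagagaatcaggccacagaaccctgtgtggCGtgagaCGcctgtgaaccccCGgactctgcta
Each window holds CCGG, the site cut by MspI, the enzyme in common use for RRBS, 2 times in the Osbpl5, Hk1 and Gm26878 windows and 1 time in the Gm24830 window. The tested CpGs numbered 3 of 3 in the Osbpl5 window, 7 of 7 in the Hk1 window, 3 of 3 in the Gm24830 window and 5 of 7 in the Gm26878 window, which leaves out 1 of the 6 cytosines of its region.

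Total reads over cytosines ranged from 51359825 in C29+5-azadC replicate 2 to 81299065 in 5-azadC replicate 2. The median shore region was covered by 175 reads in the former library and by 285 in the latter, with the other 6 libraries between 198 and 233. Spike-in DNA gave 97.5% to 98.3% methylation for the methylated control and 0.216% to 0.329% for the unmethylated control. Reads carry no molecular identifiers, so tests on reads cover counting error only.

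The methylation of shores fell with 5-azadC. Mean methylation over the 7707 regions was 61.4% and 61.3% in the libraries of vehicle, 61.0% and 59.5% with C29, 53.3% and 53.9% with 5-azadC, and 55.0% and 55.4% for the combination. All 4 libraries with 5-azadC lay below all 4 without it. The mean was 60.8% ± 0.896 (SD, n = 4) without 5-azadC and 54.4% ± 0.982 (SD, n = 4) with it, a difference of -6.39 percentage points (exact two-sided permutation p = 0.0286, the smallest that 4 against 4 libraries allow). That is -10.5% of the mean without the drug. Over 110 such tests of 5-azadC, on sets of regions and on differences or ratios between sets, 84 had a p of 0.0286, and the adjusted value of each of these by Benjamini-Hochberg was 0.0374. Tests within the same genes, on the X chromosome, in bins of distance and under alternative settings were not among the 110 and were not adjusted.

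With C29, the difference over all 8 libraries did not exceed the spread between them. The 4 libraries with C29 differed from the 4 without by 0.264 points (exact permutation p = 0.914), the mean of -1.07 points without 5-azadC and 1.60 points with it. This test, like the other exact test of C29 below, takes no account of 5-azadC, whose larger difference is then part of the spread. With C29 labels permuted within libraries of the same 5-azadC status, an alternative added with the data known, p was 0.833 (exact permutation, smallest possible 0.0556). The mean of the differences within 5-azadC status was -0.131 points without C29 replicate 1 and lay between 0.0951 and 0.659 points without any other library. Between single groups, 2 against 2 libraries cannot give an exact permutation p below 0.333, so sizes are given with their standard errors. C29 minus vehicle was -1.07 points (SE 0.794), with both libraries of C29 below both of vehicle. By side, it was -0.888 points upstream (SE 0.873), where the libraries overlapped, and -1.20 points downstream (SE 0.752), where they did not. Over both sides, it was -0.280 points without C29 replicate 2 and -1.86 points without C29 replicate 1. 5-azadC minus vehicle was -7.72 points (SE 0.345), and C29+5-azadC minus vehicle was -6.12 points (SE 0.248). Both libraries with C29+5-azadC lay above both with 5-azadC alone, by 1.60 points on average (SE 0.412). The interaction, the combination minus C29 minus 5-azadC plus vehicle, was 2.67 points (SE 0.895), and 3.46 and 1.88 points without C29 replicates 1 and 2. It was 2.24 points upstream (SE 1.05) and 2.97 points downstream (SE 0.815).

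**Figure D1:**
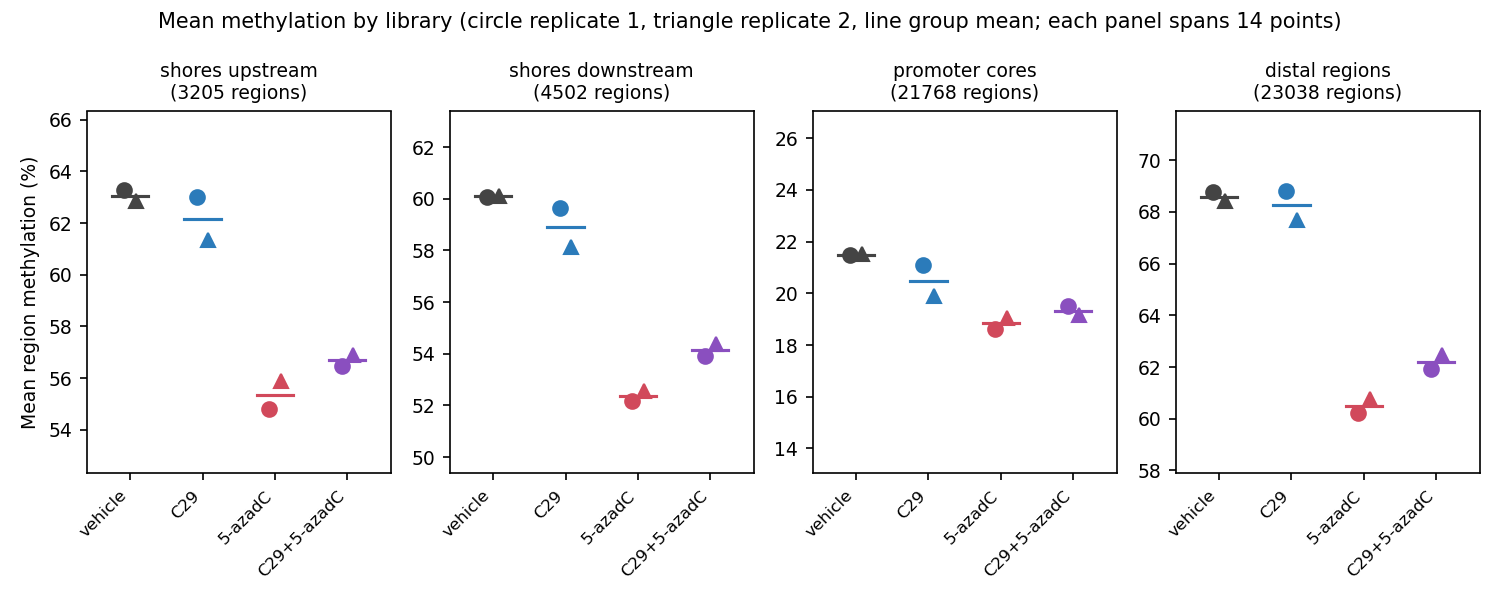
Mean methylation in percent (y axis) of upstream shores, downstream shores, promoter cores and distal regions in each of the 8 libraries, with groups along the x axis, circles and triangles for replicates 1 and 2 and a line at the group mean. Each panel spans 14 points, and in each of them the libraries with 5-azadC lie below those without.

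Methylation of the shores was higher farther from the start site on both sides. With vehicle, cytosines 1000 to 1500 bp from the start site averaged 52.5% upstream and 42.7% downstream, and those 3500 to 4000 bp away averaged 63.6% upstream and 65.0% downstream. In the first 500 bp on either side of the start site the means were 11.1% and 10.6%. The limits of the shores were no break in this profile. Just inside the limit of 1000 bp, within 250 bp of it, vehicle averaged 50.4% upstream and 40.1% downstream, and just outside it 42.1% and 30.6%. Just inside the limit of 4000 bp the values were 63.1% upstream and 65.2% downstream, and just outside 66.8% and 67.1%. Tiles with 3 cytosines, the smallest kept, averaged 69.0% with vehicle, and the 4858 shore tiles with 2 cytosines, which were left out, averaged 67.7%.

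**Figure D2:**
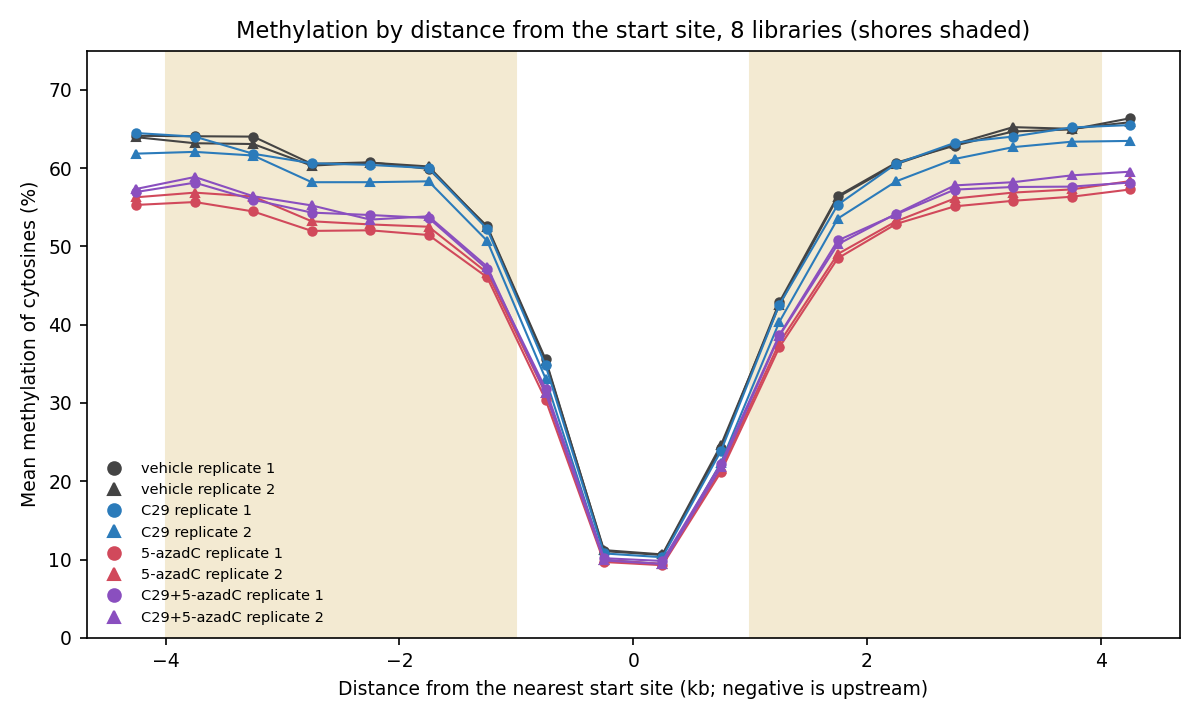
Mean methylation of cytosines in percent (y axis) in bins of 500 bp by distance from the nearest start site in kb (x axis, negative values upstream), with 1 line per library and the shores shaded. All 4 libraries with 5-azadC run below the 4 without it in every shore bin, and the lines approach each other at the start site.

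Over both sides together, the difference with 5-azadC was larger farther from the start site. It was -5.72 points over the 3614 regions centred 1000 to 2000 bp from the start site, -6.66 points over the 2191 regions at 2000 to 3000 bp and -7.35 points over the 1902 regions at 3000 to 4000 bp, each with an exact permutation p of 0.0286. The nearest and the farthest of these zones differed in their response by 1.63 points (exact permutation p = 0.0286). Taken as a percentage of the mean without the drug, the differences were -10.4%, -10.2% and -11.1% in the order of distance. The increase was mostly on the downstream side, with -5.34, -6.52 and -7.75 points in these zones, against -6.31, -6.84 and -6.85 points upstream. Upstream cytosines differed by -5.20 points at 1000 to 1500 bp, by -6.75 points at 1500 to 2000 bp and by -5.95 points at 3500 to 4000 bp. Whether the sides differ in this was not tested.

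Upstream and downstream shores responded to a similar degree. The mean of upstream regions was 62.6% ± 0.878 (SD, n = 4) without 5-azadC and 56.0% ± 0.918 with it, and that of downstream regions 59.5% ± 0.926 and 53.3% ± 1.05. The differences were -6.61 points upstream and -6.23 points downstream (exact permutation p = 0.0286 for each). Upstream shores were more methylated than downstream shores by 3.13 points without 5-azadC and by 2.76 points with it. This gap changed by -0.372 points, which was not distinguishable from the spread between libraries (exact permutation p = 0.143). It had p = 0.0286 by the same exact permutation test in regions of 5 or more cytosines (-0.544 points), with protein-coding start sites only (-0.493 points) and as a mean over cytosines (-0.561 points). In the 618 genes with shore regions on both sides, the gap changed by -0.579 points (exact permutation p = 0.0286). The ratio of upstream to downstream methylation was 1.05 with and without the drug (exact permutation p = 0.914).

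Shores lost more methylation in points than promoter cores and slightly less than distal regions. The difference with 5-azadC was -1.91 points in promoter cores, from 20.99% to 19.1%, and -7.07 points in distal regions, from 68.4% to 61.4%. Shores minus promoter cores changed by -4.48 points, and shores minus distal regions by 0.680 points (exact permutation p = 0.0286 for each). The latter had p = 0.0571 by the exact permutation test when a library with 5-azadC was left out. It was then 0.685 and 0.644 points without 5-azadC replicates 1 and 2, and 0.689 and 0.704 points without C29+5-azadC replicates 1 and 2. Relative to the level without the drug, the differences were -10.5% in shores, -9.11% in promoter cores and -10.3% in distal regions. The ratio of shores to promoter cores (exact permutation p = 0.229) and that of shores to distal regions (p = 0.800 by the same exact test) showed no difference with 5-azadC. In the 3416 genes with both a shore region and a promoter core, the shore differed by -6.50 points and the core by -2.01 points, and this contrast of -4.49 points exceeded the spread between libraries (exact permutation p = 0.0286).

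The difference in points was smaller in shores of low methylation. Shore regions averaging below 20% over the 8 libraries (1578 regions) differed by -1.16 points with 5-azadC, those at 20 to 50% (1238) by -4.86 points, those at 50 to 80% (2094) by -9.04 points and those at 80% or more (2797) by -8.03 points. As a percentage of the mean without the drug the order was another, with -17.0%, -13.0%, -12.5% and -8.63% from the lowest class to the highest. The classes were set on all 8 libraries, so a region's loss with 5-azadC also bore on its class. Differences by class, and their order, are therefore not independent of the classes. Each class had an exact permutation p of 0.0286, but regions at 20 to 50% gave p = 0.0571 by that test with 5 or more cytosines (-3.91 points) and when a library with 5-azadC was left out. Their difference was then -4.47 and -4.87 points without 5-azadC replicates 1 and 2, and -4.74 and -5.32 points without C29+5-azadC replicates 1 and 2. Upstream and downstream shores differed from each other in their response in none of these classes, with exact permutation p-values from 0.229 to 0.886. Shores minus distal regions changed by 0.698 points among regions below 20% (exact permutation p = 0.0286), where shores lost less, and by -0.668 points among regions at 80% or more (exact permutation p = 0.0286), where they lost more. In the classes between, the change was 1.19 points at 20 to 50% (exact permutation p = 0.0857) and -0.365 points at 50 to 80% (exact permutation p = 0.571).

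Highly methylated shores were fewer in each library with 5-azadC. Regions at 80% or more made up 43.9% and 43.9% of shores in the libraries of vehicle, 43.0% and 41.7% with C29, 27.9% and 28.6% with 5-azadC and 31.0% and 32.1% with the combination. Regions below 20% made up 20.1% to 21.7% of shores in libraries without 5-azadC and 22.0% to 23.1% in those with it. The median shore region was at 70.2% to 73.9% in libraries without 5-azadC and at 60% to 63.8% in those with it.

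Most shore regions shared the direction. The mean of the 4 libraries with 5-azadC was below that of the 4 without in 76.2% of shore regions, in 56.8% of promoter cores and in 79.8% of distal regions. The median shore region differed by -5.67 points, and 90% of the regions lay between -22.5 and 7.19 points. A difference of 10 points or more was seen downward in 2429 regions (31.5%) and upward in 238 (3.09%). For C29 the median was 0.0929 points, with 764 regions lower by 10 points or more and 809 higher.

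**Figure D3:**
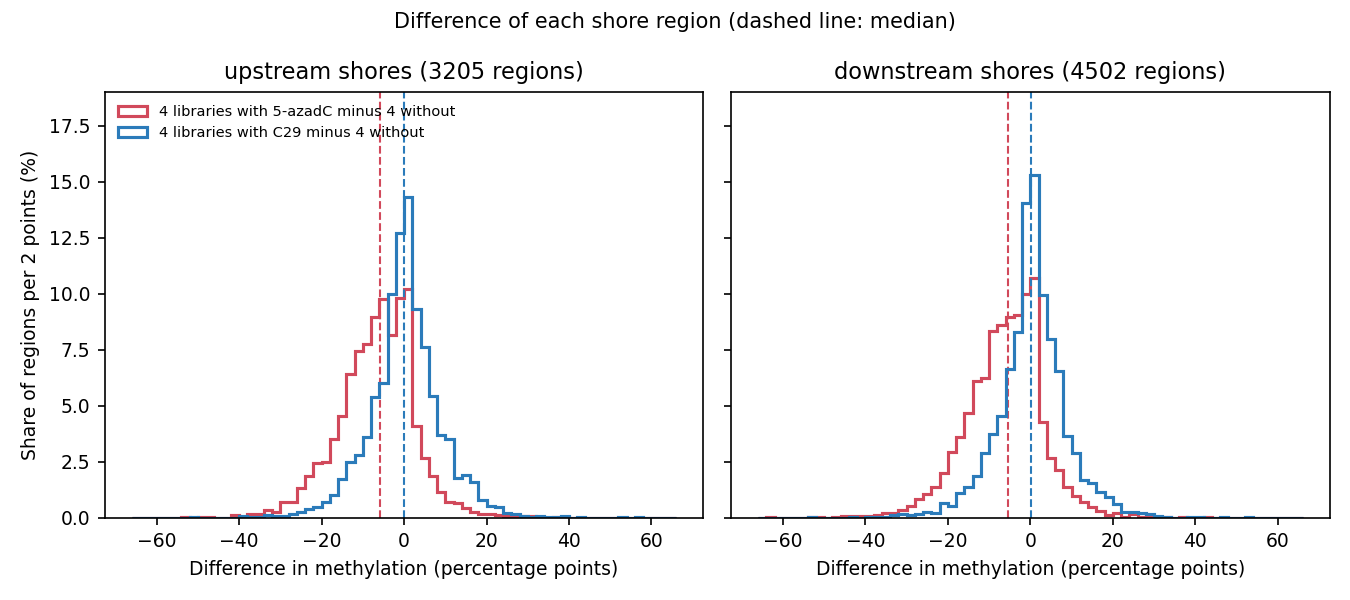
Distribution of the difference in methylation of each shore region in percentage points (x axis) as the share of regions per 2 points (y axis), upstream at left and downstream at right, for the 4 libraries with 5-azadC minus the 4 without and for the 4 with C29 minus the 4 without. The dashed medians for 5-azadC lie at -5.92 points upstream and -5.47 points downstream, and those for C29 near 0.

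Shore tiles differed from the other regions in base composition. Their mean GC content was 51.5%, against 56.9% in promoter cores and 48.2% in distal regions, and their observed CpGs were 0.380 of the number expected from base composition, against 0.609 and 0.325. Tiles with a GC content of 50% or more and an observed-to-expected ratio of 0.6 or more, here called island-like, made up 11.6% of shore tiles (896), 50.1% of promoter cores and 2.34% of distal regions. They were 13.99% of downstream and 8.30% of upstream shores. Island-like shore tiles had a mean methylation of 26.0% without 5-azadC and 24.9% with it, a difference of -1.09 points that did not exceed the spread between libraries (exact permutation p = 0.286). Without C29 replicate 2, it was -1.95 points (exact permutation p = 0.0286). The other 6811 shore tiles went from 65.4% to 58.3%, by -7.09 points, and the responses of these tile classes differed by 6.00 points (exact permutation p = 0.0286).

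By annotation, 42.2% of shore regions lay in introns, 25.3% in coding exons, 22.6% between genes, 5.11% in noncoding exons and 4.84% in UTRs. Upstream shores were intergenic in 40.4% of cases and downstream shores in 9.91%. Coding-exon shores had the highest mean without 5-azadC, 71.0%, and intergenic shores the lowest, 53.8%. With 5-azadC the former differed by -6.54 points, intron shores by -6.59 points and intergenic shores by -5.88 points. Intron and intergenic shores did not differ from each other in this response by the exact permutation test (-0.706 points, p = 0.0857), nor did coding-exon and intron shores (0.0478 points, p = 0.800 by the same exact test). Shores of protein-coding start sites and those of long noncoding start sites differed by -6.23 and -6.37 points and were not distinguishable (exact permutation p = 0.714). The letters TCAAGGTCA, the response element bound by ERRα, were searched on both strands and found in 2.80% of shore tiles (216), against 2.31% of all tiles. Methylation in these 216 regions went from 67.3% to 61.1% with 5-azadC and differed by -0.380 points with C29 (exact permutation p = 0.800).

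Single regions varied between the libraries of a group. Replicates of vehicle were 25 points or more apart in 9.85% of shore regions and those of C29 in 10.8%. Replicates of 5-azadC were that far apart in 14.1% of the regions and those of the combination in 16.1%. The logistic likelihood-ratio test of methylKit, which takes reads as its only source of error, called a region at an adjusted p below 0.01 and a pooled difference of 25 points or more from vehicle. For 5-azadC it called 635 shore regions lower and 63 higher, against 5.64% and 0.607% of the regions of all positions. Both treated libraries lay beyond both vehicle libraries in 549 and 41 of them. That held for 448 of 510 lower calls in promoter cores and for 1615 of 1818 in distal regions. For C29+5-azadC the logistic test called 554 lower and 78 higher (5.18% and 0.847% of all regions), 470 and 62 of them with both libraries beyond vehicle. For C29 it called 220 lower and 123 higher (1.99% and 1.37% of all regions), 170 and 101 of them with both libraries beyond vehicle. The shares of shore regions called lower were 8.24%, 7.19% and 2.85% for these treatments in that order. In distal regions the shares were close to these, at 7.89%, 7.31% and 2.37%. Upstream and downstream shores had like shares, with 8.30% and 8.20% called lower for 5-azadC. In simulated data of high spread the same rule called 1764 of 52513 regions although they had no shift. For C29 against vehicle it called 1044 lower and 717 higher of all 52513 regions. The logistic calls, those of C29 among them, can therefore arise without a shift. Counts were higher where a library was left out of the logistic test, with 1145 calls for 5-azadC without 5-azadC replicate 2 against 698 with it. They were 997 and 1026 calls for C29+5-azadC without its replicates 1 and 2, against 632. For C29 they were 604 and 541 calls without vehicle replicates 1 and 2, and 645 and 533 without C29 replicates 1 and 2, against 343.

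When the spread between libraries entered the test, no single shore region passed. The quasi-likelihood test of edgeR called 0 of 7707 shore regions at an adjusted p below 0.05 for 5-azadC across 8 libraries and 0% of all regions, with a smallest adjusted p of 0.583. At an unadjusted edgeR p below 0.05 there were 633 shore regions lower and 28 higher, against 6.01% and 0.659% of all regions. The shares lower were 8.21% of shores and 7.75% of distal regions. The test of limma also called 0 shore regions (smallest adjusted p 0.113), with 1064 lower and 60 higher at an unadjusted p below 0.05, against 10.3% and 1.34% of all regions. By limma, 13.8% of shores and 13.6% of distal regions were lower at that limit. For C29, edgeR called 0 shore regions, with 136 lower and 120 higher at an unadjusted p below 0.05 (1.57% and 1.45% of all regions), and limma called 0, with 206 lower and 229 higher (2.53% and 2.94%). For the interaction, edgeR called 0, with 100 lower and 161 higher at an unadjusted p below 0.05 (1.36% and 1.77%), and limma called 0, with 164 lower and 285 higher (2.27% and 3.45%). Neither edgeR nor limma thus called a shore region in these contrasts. In simulated data of high spread edgeR found 0 of 200 shifted regions, so its 0 calls do not show that no region changed. Which simulated spread is nearest that of these libraries was not tested. The regions named in the text are therefore described by their values and by the logistic test. Without a test, 666 shore regions had all 4 libraries with 5-azadC below all 4 without and 17 had them above, against 6.39% and 0.345% of all regions. The shares below were 8.64% of shores and 8.82% of distal regions. For C29 the counts were 69 below and 85 above, against 0.876% and 0.967% of all regions.

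Among the 4524 shore regions with 100 or more reads in each library, 447 had all 4 libraries with 5-azadC below the others and 10 had them above. These counts, and those by side below, were not set against regions of other positions at that depth. Upstream, the region of Osbpl5, a member of the oxysterol-binding protein family of lipid carriers, had the largest decrease (chr7:143760096-143760142, about 3132 bp from the start site, 118 to 254 reads). Its methylation was 56.6% and 86.4% with vehicle, 52.4% and 65.7% with C29, 17.6% and 27.4% with 5-azadC and 46.1% and 29.4% with the combination. The 4 libraries with 5-azadC lay under the other 4, and the mean difference was -35.2 points. It was called for 5-azadC and for the combination by the logistic test and had an adjusted edgeR p of 0.708.

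The next upstream decreases were in regions of genes of several functions. That of Manba, which encodes lysosomal beta-mannosidase, went from 87.7% ± 13.5 (SD, n = 4) without 5-azadC to 52.8% ± 14.1 with it. That of Spp2, which encodes a secreted phosphoprotein of bone, went from 82.0% ± 4.70 to 49.5% ± 7.92. A region in an intron and upstream of Txn2, the mitochondrial thioredoxin, went from 63.4% ± 16.5 to 31.4% ± 13.7. These 3 regions were called lower for 5-azadC and for the combination by the logistic test. The region of Aldoa, the glycolytic enzyme aldolase A, lay 1482 bp upstream in an intron and went from 91.6% ± 4.97 to 60% ± 11.7. The logistic test called the Aldoa region lower for both treatments as well. The region of Lhx6, a LIM homeodomain factor of developing interneurons, went from 71.4% ± 7.63 to 42.4% ± 13.2 and was called for the combination only, with -19.8 points from vehicle for 5-azadC alone.

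Upstream increases were fewer, 4 of 1817 regions with that depth. The region of Hk1, which encodes hexokinase 1 of the first step of glycolysis, lay in an intron 2141 bp upstream (chr10:62329841-62329963, 202 to 495 reads). It was unmethylated without 5-azadC, at 0%, 0%, 0% and 1.008%, and measured 1.72% and 10.7% with 5-azadC and 65.4% and 29.7% with the combination. Most of the increase of 26.6 points was in the libraries of the combination, which lay apart from each other, and the combination minus vehicle was 51.5 points in pooled reads. As a mean of libraries, it was 29.7 points without C29+5-azadC replicate 1 and 26.5 points with cytosines of 5 or more reads. The region of Faim2, a neuronal inhibitor of Fas-induced apoptosis, went from 5.18% ± 6.68 to 26.2% ± 3.83. That of C1ql1, a secreted C1q-like protein of synapses, went from 3.07% ± 0.966 to 14.03% ± 9.27. Neither differed from vehicle by 25 points in any treatment.

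Downstream, the largest decrease was in the region of Gm24830, a small nuclear RNA gene (chr3:96332139-96332171, 3727 bp from the start site, 146 to 462 reads). Its methylation was 83.4% and 74.5% with vehicle, 79.7% and 81.9% with C29, 33.6% and 35.6% with 5-azadC and 25.4% and 19.1% with the combination. The groups did not overlap, the difference was -51.4 points, and the edgeR p was 0.000915 unadjusted and 0.583 adjusted. Regions of Gm43415 and 5430420F09Rik, transcripts of unknown function, went from 72.0% ± 9.08 (SD, n = 4) to 28.9% ± 9.90 and from 60.8% ± 5.41 to 23.3% ± 7.56. That of Myo1h, an unconventional myosin, lay in a coding exon and went from 98.3% ± 3.44 to 62.8% ± 20.7.

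The region of Epas1, which encodes the hypoxia-inducible factor HIF-2α, held 12 cytosines in an intron 1310 to 1826 bp downstream (chr17:86755010-86755526, 195 to 852 reads). Its methylation was 34.6% and 20.8% with vehicle, 47.2% and 46.0% with C29, 1.45% and 12.3% with 5-azadC and 0% and 0% with the combination. It was called lower for the combination (-28.1 points in pooled reads) and not for 5-azadC alone (-18.4 points). The difference over 8 libraries was -33.7 points, and it was -18.9 points with cytosines of 5 or more reads and -19.0 points with both strands of a CpG summed.

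Downstream increases were seen in 6 of 2707 regions with that depth. The region of Gm26878, a long noncoding RNA gene (chr8:120881287-120881739, 118 to 259 reads), measured 16.6% and 39.7% with vehicle, 37.5% and 37.1% with C29, 81.2% and 55.3% with 5-azadC and 40.7% and 66.4% with the combination. The lowest library with 5-azadC, at 40.7%, lay little above the highest without, and the region was called higher for both treatments with 5-azadC. The region of Hoxd3, a homeobox gene of the body axis, went from 20.3% ± 7.24 (SD, n = 4) to 41.4% ± 5.56 in an intron. That of Zic2, a zinc finger factor of the developing brain, lay in a coding exon and measured 17.5% to 24.9% without 5-azadC and 37.3% to 45.1% with it. The Zic2 region had 11 cytosines and 315 to 824 reads, and it was called higher for 5-azadC alone (25.5 points).

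**Figure D4:**
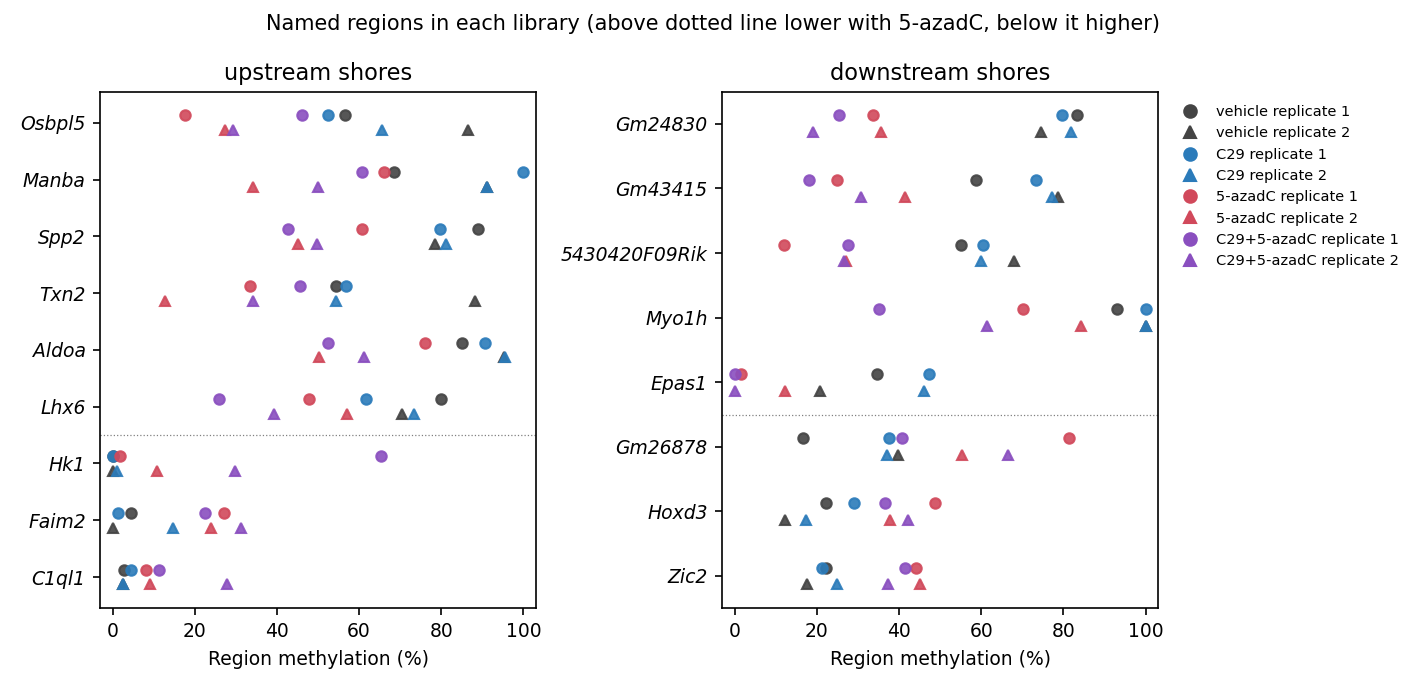
Methylation in percent (x axis) of the named upstream (left) and downstream (right) shore regions in each of the 8 libraries, 1 line of points per region. Above the dotted line the 4 libraries with 5-azadC lie below the 4 without, and under it they lie above; the regions were chosen for this.

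In single treatments, the largest calls among regions of 100 or more reads per library, where the treated pair lay beyond the vehicle pair, included regions outside those lists. For C29, a region upstream of Fech, the ferrochelatase of heme synthesis, measured 72.5% and 95.03% with vehicle and 41.3% and 26.4% with C29. A region in an intron of Otp, a homeobox gene of the hypothalamus, measured 60.9% and 36.6% with vehicle and 11.1% and 0% with C29. Gains were called for Gm24679, a small nucleolar RNA gene, at 4.14% and 30.7% with vehicle and 69.9% and 75.5% with C29, and for the long noncoding RNA gene 1700037C06Rik, at 48.8% and 67.1% with vehicle and 93.5% and 90.5% with C29. These 4 regions were chosen for pairs of libraries that do not overlap.

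For 5-azadC, the region upstream of Twist2, a basic helix-loop-helix factor of mesenchyme, was at 88.6% and 73.5% with vehicle and 25.3% and 27.9% with 5-azadC, while the libraries of the combination were at 40.3% and 89.5%. The region of Grm4, a metabotropic glutamate receptor, was at 25.4% and 16.1% with vehicle, 70.3% and 59.2% with 5-azadC and 34.2% and 24.6% with the combination. For the combination, the region of Rbp3, the retinoid-binding protein of photoreceptors, measured 81.6% and 67.8% with vehicle and 26.0% and 20.3% with the combination, and with both strands of a CpG summed its difference was -32.0 points. That of Dmrta2, a factor of the developing cortex, measured 32.8% and 60.4% with vehicle and 85.4% and 99.7% with the combination. The remaining large calls, Txn2, Gm26878, Gm24830 and Hk1, are those described with their sides.

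Over 8 libraries, among regions with 100 or more reads in each library and groups apart, the largest decreases with C29 were in regions of Krt19, a keratin of luminal mammary cells, and Dbx1, a homeobox gene of interneurons. The Krt19 region, in a coding exon 2110 bp downstream, was at 68.7% and 54.7% with vehicle, 70.6% and 71.6% with 5-azadC, 32.7% and 48.5% with C29 and 30.0% and 24.1% with the combination. The 4 libraries with C29, all below the 4 without by that choice, differed by -32.5 points on average, and the unadjusted edgeR p was 0.0167 (1 after adjustment). The Dbx1 region went from 66.2% without C29 to 38.6% with it. By the same limits, the largest increases were in the Gm24679 region, from 25.3% to 63.8%, and in that of 1700023G09Rik, a long noncoding RNA gene, from 40.6% to 65.2%.

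Genes of selected functions were described by how many of their shore regions were called or had groups without overlap, beside 666 regions lower and 17 higher of all 7707 (8.64% lower), 76.2% lower in mean and a median difference of -5.67 points. Genes whose products set or remove methylation were covered by 4 shore regions of 3 of 11 genes, with a median of -4.15 points. A UTR region of Tet1, an enzyme that oxidizes methylcytosine, went from 78.0% ± 2.49 (SD, n = 4) to 65.0% ± 4.77, and the 4 libraries with 5-azadC were all below the others. The other Tet1 region, near the start site of another transcript, was at 1.93% to 11.2% without and 0% to 17.97% with 5-azadC. A region of Tet3, of the same family, was at 20% and 39.4% with vehicle and 0% and 4.94% with C29 and was called lower for C29. The region upstream of Dnmt3b, a de novo methyltransferase, went from 81.6% to 75.6% with overlapping groups.

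The methionine cycle, which supplies the methyl donor S-adenosylmethionine, was covered by 6 shore regions of 6 of 16 genes, with a median of -6.55 points, all 6 lower in mean and none with groups apart. A coding-exon region of Cbs, which draws homocysteine into cysteine synthesis, was at 100% and 90.8% with vehicle, 100% and 100% with 5-azadC, 85.7% and 87.3% with C29 and 61.9% and 68.4% with the combination, and it was called for the combination. The region of Cth, the next enzyme of that path, had a mean of 87.0% without 5-azadC and 74.2% with it. Those of Gnmt, Amd1 and Ahcy differed by -4.74, -3.64 and -1.14 points.

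Receptors of the ERR family and their coactivators had 6 shore regions of 4 of 6 genes and a median of 1.11 points. A region of Pprc1, a coactivator related to PGC-1, went from 98.3% ± 3.33 (SD, n = 4) to 78.5% ± 15.3 with groups apart, 3 of the libraries without 5-azadC being at 100%. Regions of Esrrg and Esrrb, the related receptors ERRγ and ERRβ, differed by -2.32 to 7.35 points with overlapping groups, and that of Ppargc1b, which encodes the coactivator PGC-1β, was at 0% in 7 of 8 libraries and 1.31% in the other. Oxidative metabolism was covered by 10 regions of 7 of 53 genes, with a median of -1.96 points, and the region of Idh3a, a subunit of isocitrate dehydrogenase, had groups apart (94.1% ± 1.27 without and 78.6% ± 10.1 with 5-azadC). The 3 regions of Cpt1a, the carnitine palmitoyltransferase of fatty acid import, had means of 0%, 0.203% and 95.8% without 5-azadC. Regions of Acadm and Acadvl, acyl-CoA dehydrogenases, differed by -11.6 and -1.73 points, that of Hadha by -2.18 points, that of Cox5b by -2.82 points and those of Cpt1b, a muscle form of the transferase, by -0.606 and -1.28 points.

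Mammary lineage genes had 16 regions of 12 of 25 genes, 14 lower in mean, with a median of -5.25 points. A region 1406 bp upstream of Krt18, a keratin of luminal cells, was at 50.3% and 71.4% with vehicle, 44.4% and 46.2% with C29, 42.5% and 22.5% with 5-azadC and 0% and 0% with the combination, with 33 reads in its shallowest library. It was called for the combination, and its groups were apart. A region of Stat5a, which mediates prolactin signaling, was called for 5-azadC at 44.4% and 94.0% against 100% and 80.3% with vehicle, so its libraries overlapped. One of Grhl2, a factor of epithelial identity, was called for C29 at 68.7% and 51.6% against 83.9% and 87.9%. ErbB receptors and their ligands had 5 regions of 4 of 15 genes, none called or apart, with a median of -0.822 points. The Erbb2 region, in an intron, was at 4.55% and 5.84% with vehicle and 0% in the other 6 libraries, that of Erbb3 went from 39.0% to 46.7% with 5-azadC, those of Egf differed by -10.9 and -0.822 points and that of Nrg2 by 0.649 points.

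A list of genes drawn up for methylation in breast tumors had 22 regions of 12 of 31 genes, with a median of -2.89 points. An upstream region of Ccnd2, which encodes cyclin D2, had groups apart at low levels, 2.53% to 6.17% without 5-azadC and 0% to 1.35% with it. A second Ccnd2 region farther upstream went from 26.5% to 8.25% and was called for the combination. Regions of Trp53, Cdh13 and Twist1, which encode the p53 protein, T-cadherin and a factor of mesenchymal change, were called lower for 5-azadC. None of these 3 regions was called for the combination or had groups apart. The Cdh13 region averaged 70.6% with vehicle, 34.0% with 5-azadC, 46.1% with C29 and 51.9% with the combination. That of Cdkn1c, a cell cycle inhibitor that is also imprinted, was called higher for C29 at 54.2% and 34.1% against 12.6% and 15.1%. The Twist1 region was also called lower for C29, at 11.1% and 60% against 48.8% and 70.8%. Imprinted genes, methylated on a single parental copy, had 10 regions of 9 of 32 genes and a median of -5.65 points. That of Impact, in a noncoding exon, had groups apart at 98.9% ± 1.67 (SD, n = 4) without and 73.0% ± 15.0 with 5-azadC. A pair of Gnas regions was called higher for C29, 1 of them also for 5-azadC. The region of Kcnq1ot1 was called higher for 5-azadC, while those of H19, Airn, Grb10 and Dlk1 differed by -6.53, -8.66, -4.77 and -3.96 points and were not called.

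Genes of interferon response and antigen presentation had 14 regions of 7 of 35 genes, with a median of -9.41 points, and 13 of the 14 were lower in mean with 5-azadC, against 76.2% of all shore regions. None was called by the logistic test, and 3 had groups apart. The region upstream of Tapbp, the tapasin of peptide loading, was at 80.4% to 94.5% without 5-azadC and 53.9% to 73.9% with it. That of Psmb9, an immunoproteasome subunit, was at 93.2% to 100% and 77.8% to 92.2%. That of Irf8, an interferon regulatory factor of myeloid cells, held 15 cytosines and was at 5.76% to 25.8% and 1.05% to 3.98%. With 3 of 14 regions apart downward (21.4%, against 8.64% of all shore regions) and 14 regions in all, the list is described and not compared.

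Developmental transcription factors made up the most regions of any list, 178 of 83 of 117 genes. Their mean without 5-azadC was 37.6%, against 60.8% over all shores, and their median difference was -1.06 points. Groups were apart downward in 6 regions (3.37%) and upward in 1, the Zic2 region. The 6 were those of Lhx6, Tbx2, Irx4, T, Six2 and Pax7, all factors of organ formation. The Tbx2 region, with 16 cytosines and at least 878 reads, went from 31.3% ± 5.48 (SD, n = 4) to 19.2% ± 1.005. That of T (brachyury) went from 70.6% ± 7.07 to 45.3% ± 12.3, and by -15.1 points with cytosines of 5 or more reads. Those of Irx4, Six2 and Pax7 differed by -23.7, -5.75 and -14.6 points, of which Irx4 differed by -6.88 points with cytosines of 5 or more reads and Six2 by -10.002 points with that and -13.3 points with 20 or more.

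The logistic test called 9 of the 178 regions lower and 6 higher for 5-azadC, 6 lower and 3 higher for the combination and 15 lower and 3 higher for C29. Of all shore regions it called 8.24% lower and 0.817% higher for 5-azadC, 7.19% and 1.012% for the combination and 2.85% and 1.60% for C29, with no test of the list against them. The 15 included regions of Pax3, Pax9, Foxc1, Tbx18, Barhl1 and Gata2. That of Foxc1, a forkhead factor, was at 73.2% and 74.1% with vehicle, 45.8% and 30.3% with C29, 38.2% and 38.9% with 5-azadC and 36.8% and 56.98% with the combination. A region of Lhx2, a LIM homeodomain factor, was called lower for 5-azadC and for the combination, at 0%, 38.7%, 7.79% and 13.0% against 58.3% and 58.9% with vehicle. Hox genes had 36 regions of 22 of 39 genes, a mean of 34.4% without 5-azadC and a median of -1.91 points. Besides Hoxd3, a region of Hoxa5, which acts in lung and mammary development, had groups apart, at 87.2% to 100% without 5-azadC and 50.7% to 74.9% with it.

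The study's own transcription factors were chosen on these samples, so their direction is not independent evidence. They had 8 shore regions of 5 of 9 genes, none called and none with groups apart, and a median of -2.71 points. The region of Irf4, an interferon regulatory factor of lymphocytes, lay in a coding exon and measured 33.8% and 19.05% with vehicle, 23.5% and 12.2% with C29, 22.2% and 14.1% with 5-azadC and 30.8% and 7.62% with the combination. The libraries of the groups overlapped. Those of Pou3f3, a POU factor of neurons, differed by -11.1 points in a UTR and by 14.6 and 11.6 points in coding exons, the former of these by 3.83 points with cytosines of 5 or more reads. Those of Vdr, the vitamin D receptor, differed by -1.97 and -9.79 points, that of Gfi1, a repressor of blood cells, by -0.784 points and that of Hoxa3 by -4.76 points.

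Shore regions of genes that mark host cells were examined beside these. Fibroblast genes had 6 regions with a median of -4.82 points, endothelial genes 3 regions with a median of 3.88 points, myeloid genes 2 regions with a median of -1.45 points and adipocyte genes 3 regions with a median of -10.2 points. In no region of these lists were the groups with and without 5-azadC apart. A region of Col1a1, the collagen of fibroblasts, was called lower for 5-azadC at 71.7% and 42.9% against 82.0% and 85.1% with vehicle, and one of Lep, the leptin gene of fat cells, at 0% and 10.6% against 52.8% and 43.7%. Another Col1a1 region was called higher for C29 and lower for the combination, at 100% and 100% and at 21.1% and 66.7%, against 48.6% and 100% with vehicle. Regions of Pecam1 and Flt1 in the endothelial list, of Csf1r in the myeloid list and of Plin1 in the adipocyte list were not called. The Pecam1 region 3733 bp downstream was at 0% and 0.926% with vehicle, 5.44% and 4.79% with C29, 0% and 3.75% with 5-azadC and 15.7% and 20.99% with the combination. The share of host DNA in each library was not measured, and its part in these values was not tested.

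**Figure D5:**
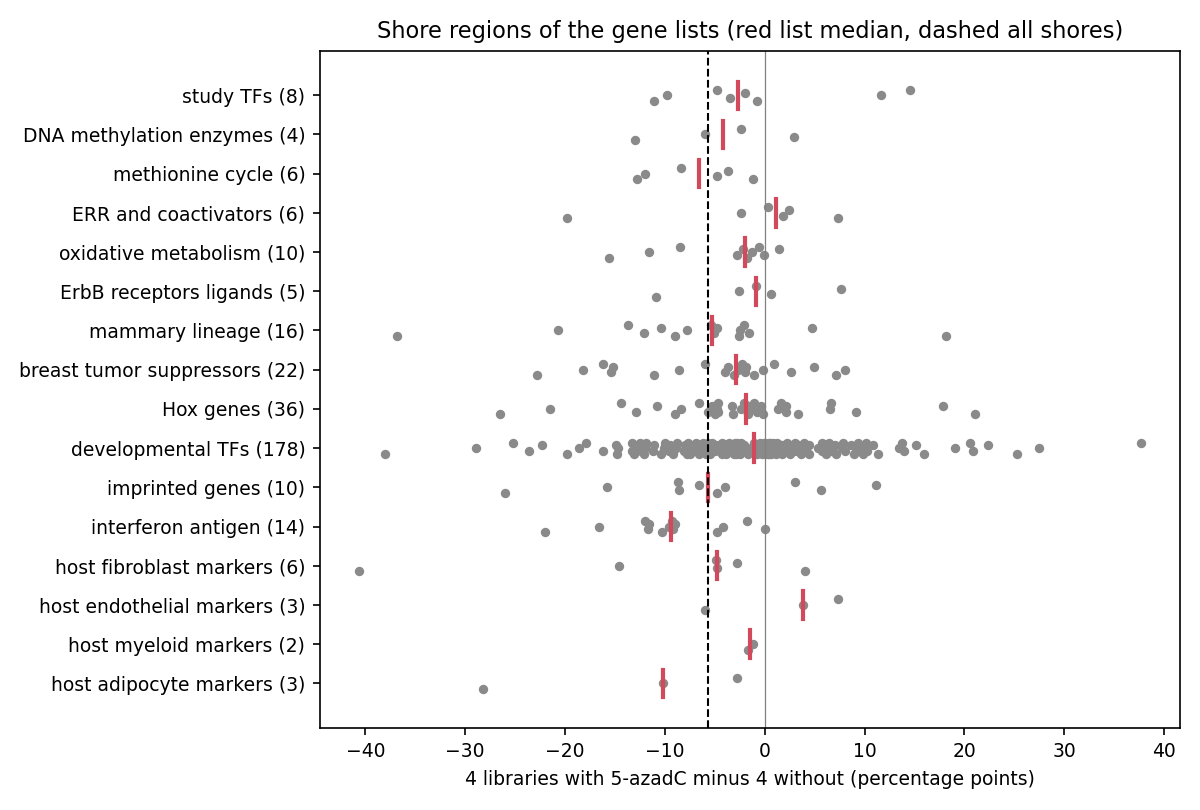
Difference in methylation of each shore region in percentage points (x axis, 4 libraries with 5-azadC minus 4 without) for the regions of each gene list (y axis, number of regions in brackets), with the list's median as a red line and the median of all shores, -5.67 points, dashed. The developmental and Hox lists have medians of -1.06 and -1.91 points and the interferon and antigen list -9.41 points.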

How the data were processed

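RRBS was performed by the authors on pooled tumor DNA, and their processing notes name FastQC 0.11.8, Trim Galore 0.4.1, Bismark 0.20.0 and methylKit 1.7.0 with the build mm10/GRCm38. For each cytosine the authors deposited the methylated fraction (0 to 1) and the read count, neither normalized, and the product of both was rounded to methylated reads (whole within 0.01 reads for at least 99.9997% of cytosines). All 555155 cytosines kept were checked to lie in CpG in GRCm38. Groups came from the sample labels.

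Reads were summed over a region's cytosines, and a library's value is the mean over its regions. Exact two-sided permutation tests compared these means. Regions were tested with the logistic likelihood-ratio test of methylKit (written anew with NumPy 2.4.6, SciPy 1.17.1 and pandas 2.3.3 in Python 3.11.15), edgeR 4.0.16 and limma 3.58.1 (1 read added on the log scale) in R 4.3.3, with Benjamini-Hochberg adjustment over all 52513 regions. The logistic test and edgeR were tried on simulated data, in which edgeR found shifts of single regions at low spread and none at high spread, where the logistic test also called many regions that had no shift.

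Named regions were, on each side, the 6 largest decreases and 3 largest increases with 5-azadC (100 or more reads in each library, groups apart), at the same depth and without regard to side the 2 largest calls in each direction of each treatment with both libraries beyond vehicle and the 2 largest in each direction for C29 across 8 libraries with groups apart, and list members that were called, apart, or in lists of 10 or fewer regions. Some regions that meet these rules are not reported here. Members and lists were chosen with earlier results of these data known. Alternatives were the coverage minimum, the number of cytosines, tiles of 500 bp, protein-coding start sites, the cytosines of highest coverage, strands, the mean over cytosines, a replicate block, other tests and thresholds, and leaving out each library.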

Additional observations from a re-analysis of the deposited data

Results flagged for a closer look

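In 11 of 84 sets of 4 libraries, with or without 5-azadC, 1 library stood apart from the other 3 by most of the range. Chance gives about 1 in 20 for normally distributed values, which does not apply here, since many of these regions were chosen for extreme values and 3 libraries tied at 0% or 100%, as for Hk1, Pax7, Pprc1 and Myo1h, pass whatever the fourth is. Of libraries without 5-azadC, these were C29 replicate 2 in the Hk1 upstream region (1.008%, the others 0%), C29 replicate 1 in the C1ql1 upstream region (4.50%), vehicle replicate 2 in the Txn2 upstream region (88.1%), C29 replicate 2 in the Irf8 downstream region (25.8%), and vehicle replicate 1 in the downstream regions of Pprc1 (93.3%), Myo1h (93.1%) and Gm26878 (16.6%). Of libraries with 5-azadC, they were C29+5-azadC replicate 2 in the C1ql1 upstream region (27.8%), C29+5-azadC replicate 1 in the Pax7 upstream region (1.60%, the others 0%), 5-azadC replicate 2 in the Epas1 downstream region (12.3%) and 5-azadC replicate 1 in the 5430420F09Rik downstream region (12.0%).

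In 12 of 147 values, both libraries moved one way with 5-azadC on the background of vehicle and both moved the other way on that of C29. The change on C29 minus the change on vehicle was -22.97 points for Krt19, -56.6 for Grm4, -77.3 for Emx2, -55.0 for Gnas, -57.5 for Dlx5 and -49.1 for Kcnq1ot1, where methylation was higher on vehicle and lower on C29. It was 39.8 points for Otx1, 44.9 for Fech, 42.2 for Tbx15, 30.0 for Tet3, 42.4 for Cdh13 and 52.1 for Zic1, where it was lower on vehicle and higher on C29. The unadjusted edgeR p of the interaction was 0.00217 for Emx2, 0.0225 for Grm4, 0.0287 for Gnas, 0.04999 for Otx1 and from 0.0768 to 0.280 for the others, and the adjusted edgeR p was 1 for all 12.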

How the results depend on the processing

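The 5-azadC differences of shores, of each side and of shores minus promoter cores kept their direction and p = 0.0286 (exact permutation) under all alternatives except the replicate block. Without each library in turn they ranged from -6.83 to -6.01, -7.04 to -6.20 (upstream), -6.68 to -5.88 (downstream) and -4.80 to -4.25 points, and that of upstream minus downstream from -0.560 to -0.288 points. Replicate numbers did not pair the libraries (correlation of replicate differences 0.00273 to 0.0479 across regions), and with a replicate block, whose smallest exact permutation p is 0.0556, the values were -6.39, -6.61, -6.23, -4.48 and, for shores minus distal regions, 0.680 points. Shores minus distal regions ranged from 0.480 to 0.837 points without each library and had exact permutation p-values of 0.0857 with 5 reads (0.487 points), 0.0571 with 20 reads (0.910) and 0.0571 with strands summed (0.681). Upstream minus downstream had p = 0.0286 (exact permutation) with 5 or more cytosines (-0.544 points), protein-coding start sites (-0.493) and the mean over cytosines (-0.561).

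As plain means, the C29 difference across 8 libraries ranged from -1.14 to 1.58 points and was below 0 without C29 replicate 1 (-0.842), C29 replicate 2 (-0.315), 5-azadC replicate 1 (-1.14) and 5-azadC replicate 2 (-0.911). These values do not measure C29 alone, because leaving out a library makes the share of 5-azadC unequal between its sides. Within 5-azadC status, an alternative added with the data known, the mean difference was 0.264 points (exact permutation p = 0.833), from 0.0951 to 0.659 points without a library other than C29 replicate 1 and -0.131 points without that one. Without each library, C29 minus vehicle was -1.86 to -0.280 points, 5-azadC minus vehicle -8.06 to -7.39, C29+5-azadC minus vehicle -6.36 to -5.89, C29+5-azadC minus 5-azadC 1.26 to 1.94 and the interaction 1.88 to 3.46. 5-azadC minus vehicle was -6.98 points with 20 reads and -6.42 with 5 or more cytosines, where C29+5-azadC minus vehicle was -4.92. The cause of the changes between single groups was not tested.

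Logistic calls for C29, 5-azadC and C29+5-azadC were 113, 243 and 222 with 20 reads and 93, 159 and 145 with 5 or more cytosines, where fewer regions were tested (3469 and 3395 shore regions). They were 1965, 3297 and 3009 at 10 points, and 343 to 645, 698 to 1145 and 632 to 1026 without each library. edgeR called 0, 0 and 0 against vehicle (270, 462 and 449 at an unadjusted p below 0.05), and so did the overdispersion-corrected F test, which found no shifted region in simulated data and so carries no information. Across 8 libraries, edgeR called 0 shore regions in all 3 contrasts under every alternative and without each library (482 to 794 for 5-azadC at an unadjusted p below 0.05 without each library). These 0 calls do not show that no region changed, since edgeR found 0 of 200 shifted regions in simulated data of high spread. limma, run on the regions as reported only, also called 0 in each (1124, 435 and 449 at an unadjusted p below 0.05 for 5-azadC, C29 and the interaction). Of named regions, 558 of 569 values with other coverage minimums, 5 or more cytosines, without the highest coverage or with strands summed lay within 1 SD (pooled over the libraries compared) of the value reported. Part of this agreement was fixed in advance. A region kept with 5 or more cytosines has the same reads and so the same value. Without the highest coverage, 7703 of 7707 shore regions remained. Named regions lost under an alternative were not counted.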

Other observations

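Shores on the X chromosome, which were in none of the comparisons, numbered 153 regions. Their mean methylation was 66.7% and 63.9% with vehicle, 64.1% and 63.4% with C29, 57.8% and 58.6% with 5-azadC and 60.6% and 61.0% with both drugs. The 4 libraries with 5-azadC lay below the 4 without, by -5.01 points on average (exact permutation p = 0.0286, the smallest possible). Promoter cores on the X chromosome (526 regions) had a mean of 44.7% without 5-azadC, against 20.99% on autosomes, and differed by -0.530 points with it (exact permutation p = 0.6).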
